A study of Homo sapiens with 4 samples.

Results

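The genes described here are the neutrophil-attracting chemokines CXCL1, CXCL2, CXCL3, CXCL5, CXCL6 and CXCL8 (interleukin 8), the membrane-anchored chemokine CXCL16, and the cytokines IL1A, IL1B and IL6. They were chosen by name, as 10 of the 26475 gene symbols listed for each library, by a rule that used no measured value but was written with earlier results of these data known. All 10 had at least 10 reads in at least 1 library, the minimum that 15204 genes met. The RNA came from mammospheres of the triple-negative breast cancer line MDA-MB-468, which is basal-like and long established, after a week in suspension culture with EGF. Mammospheres are floating colonies grown without attachment, used to enrich for stem-like cells. TCOF1, the targeted gene, encodes treacle, a nucleolar protein with an established role in ribosomal RNA synthesis. The study reported no fall in ribosomal RNA after TCOF1 knockout in spheroids of this line. The question was which transcripts differ when TCOF1 is knocked out.

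There were 4 conditions with 1 library each. CTL was the control line, which the study calls both a vector control and a control guide, without doxycycline, and is labelled wild type. CTL+dox was the same control line with doxycycline and is also labelled wild type. The gRNA2 library came from cells carrying an inducible guide against TCOF1, without doxycycline, and is labelled wild type as well. The gRNA2+dox library came from those cells with doxycycline and is labelled a TCOF1 knockout. By the study's methods, the inducible lines carried Cas9 marked with mCherry and a doxycycline-inducible guide marked with green fluorescent protein, and were sorted by flow cytometry, with no cloning step described. Several plates were pooled for each library, and no condition had a replicate culture. The values therefore compare libraries, and the spread between cultures was not measured.

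Chemokines of the CXC family that carry a glutamate-leucine-arginine motif bind the receptors CXCR1 and CXCR2 and draw neutrophils to sites of injury. Interleukin 1 alpha and beta signal through a shared receptor, IL1R1, to NF-kappa-B and can induce the chemokines and interleukin 6, and IL1RN encodes a secreted antagonist of that receptor. Epithelial and carcinoma cells can make these factors themselves, and interleukin 8 has been linked to stem-like cells in breast cancer.

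The promoters of the 6 neutrophil chemokines are shown first, because these genes lie in one cluster yet differ in how their levels moved between the libraries. The genes sit on chromosome 4 of GRCh38 from 73740569 to 74099195, a stretch of 359 kb that holds 9 protein-coding genes of this family. The others, PF4V1, PF4 and PPBP, lie among the 6. Each line gives the 250 bases before the annotated start, 5′ to 3′ on the gene's strand, from RefSeq on GRCh38.p14. Capitals mark the letters GGNNNTTCC, an NF-kappa-B-type pattern searched on both strands. The windows are chr4:73869143-73869392 on the forward strand for CXCL1, chr4:74099196-74099445 on the reverse strand for CXCL2, chr4:74038690-74038939 on the reverse strand for CXCL3, chr4:73998678-73998927 on the reverse strand for CXCL5, chr4:73836428-73836677 on the forward strand for CXCL6 and chr4:73740319-73740568 on the forward strand for CXCL8.
CXCL1: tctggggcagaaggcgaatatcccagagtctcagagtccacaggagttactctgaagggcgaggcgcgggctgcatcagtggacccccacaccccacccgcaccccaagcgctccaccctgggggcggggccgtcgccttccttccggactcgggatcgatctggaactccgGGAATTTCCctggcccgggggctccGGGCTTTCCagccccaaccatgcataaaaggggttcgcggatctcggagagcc
CXCL2: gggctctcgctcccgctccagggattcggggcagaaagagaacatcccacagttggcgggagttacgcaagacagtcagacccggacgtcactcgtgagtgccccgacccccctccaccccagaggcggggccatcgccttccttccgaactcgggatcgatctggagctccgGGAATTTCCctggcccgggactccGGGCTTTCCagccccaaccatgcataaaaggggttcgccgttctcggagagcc
CXCL3: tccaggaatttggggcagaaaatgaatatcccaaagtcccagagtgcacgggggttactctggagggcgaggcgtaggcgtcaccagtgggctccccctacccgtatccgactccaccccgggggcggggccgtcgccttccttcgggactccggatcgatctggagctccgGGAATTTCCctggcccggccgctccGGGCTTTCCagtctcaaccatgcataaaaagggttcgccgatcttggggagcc
CXCL5: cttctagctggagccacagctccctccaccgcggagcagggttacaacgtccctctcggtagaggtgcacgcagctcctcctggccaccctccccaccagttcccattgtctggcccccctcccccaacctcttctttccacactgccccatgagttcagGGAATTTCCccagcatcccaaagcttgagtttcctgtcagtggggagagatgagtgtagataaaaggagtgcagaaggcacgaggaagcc
CXCL6: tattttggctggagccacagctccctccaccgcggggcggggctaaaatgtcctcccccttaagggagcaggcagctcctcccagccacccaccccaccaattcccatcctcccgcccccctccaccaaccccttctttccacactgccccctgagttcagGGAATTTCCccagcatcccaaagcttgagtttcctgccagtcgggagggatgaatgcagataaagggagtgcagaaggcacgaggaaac
CXCL8: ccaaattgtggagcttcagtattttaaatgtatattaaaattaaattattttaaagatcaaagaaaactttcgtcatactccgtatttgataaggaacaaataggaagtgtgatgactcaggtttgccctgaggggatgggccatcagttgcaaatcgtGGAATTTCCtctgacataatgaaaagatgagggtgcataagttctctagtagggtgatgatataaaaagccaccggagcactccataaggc

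The pattern occurred 2 times in each of the windows of CXCL1, CXCL2 and CXCL3 and 1 time in those of CXCL5, CXCL6 and CXCL8. Promoter entries existed for 9 of the 10 genes, CXCL16 being the one without. In the 250 bases before the start, 7 of these 9 genes held the pattern (the 6 above and IL6), as did 17.1% of all 35116 promoters. The AP-1-type letters TGANTCA, searched on both strands, were found for CXCL8 and IL1A and in 6.57% of all promoters. The C/EBP-type letters TTGCNNAA, on both strands, were found for CXCL2, IL1B and IL6 and in 9.05% of all promoters. The TATA box letters TATAAA, on the gene strand, were found for CXCL8 and IL1A and in 6.80% of all promoters. In these genes no match of one pattern overlapped a match of another. The windows of CXCL5 and CXCL6 were 85.3% identical over their aligned columns, with a shared run of 45 bases, and those of CXCL1 and CXCL3 were 81.4% identical. Those of CXCL2 and CXCL3 were 73.3% identical and those of CXCL1 and CXCL2 70.4%. Against that likeness, the window of CXCL5 was 43.5% identical to that of CXCL8 and 49.8% to that of CXCL2. These matches describe letters only, since binding was not measured.

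The libraries held between 19960644 and 26322847 reads on genes, and 3 reads, taken as the smallest level the depth can show, came to between 0.115 and 0.147 CPM, the unit of reads scaled to library size with TMM factors. TCOF1 itself had 437 reads in gRNA2+dox, 1318 in gRNA2, 754 in CTL+dox and 1019 in CTL, or 20.01, 50.60, 33.47 and 49.90 CPM. Without doxycycline the guide and control lines were thus alike in TCOF1 level. With doxycycline the level was lower in the control line as well, and TCOF1 transcript remained in the library labelled a knockout. Why TCOF1 was lower in CTL+dox was not tested. All 9 epithelial and basal markers were detected in every library, with a summed level of 19288 to 20940 CPM. Among the markers of white blood cells, PTPRC, CD3E, MS4A1 and FCGR3A had at most 3 reads in any library, and the summed level of 62.0 to 67.9 CPM came mostly from CSF1R and CD14. The 6 neutrophil markers summed to between 2.61 and 2.74 CPM, and none of them was highest in gRNA2+dox, with ELANE at 0 in all 4 libraries and FCGR3B at no more than 1 read. Most of their reads were on CSF3R, with 25 to 45 reads in each library, and S100A12, with 15 to 26. Markers of fibroblasts summed to 17.0 to 21.5 CPM and those of endothelium to 1.10 to 1.92 CPM. In RNA from whole cultures, fewer cells expressing a gene and less RNA per cell cannot be told apart.

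Together the 10 genes took 0.124% of the reads on genes in gRNA2+dox, 0.102% in gRNA2, 0.120% in CTL+dox and 0.104% in CTL. CXCL8 and IL1B made up between 82.0% and 85.1% of these reads. Per length of the canonical transcript (RPKM, mean of the 4 libraries), the order was CXCL8 at 370 and IL1B at 222, then IL1A at 35.7, CXCL16 at 28.3 and CXCL1 at 23.5. Below these came CXCL3 at 9.61, CXCL2 at 4.66, CXCL5 at 1.19, IL6 at 0.420 and CXCL6 at 0.312. Among the 13810 genes with a length, CXCL8 ranked 138 and CXCL6 12496. The counting intervals of IL6 and CXCL6 overlapped, so these neighbours were not separated at this depth.

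CXCL5, which encodes epithelial neutrophil-activating peptide, was called higher in gRNA2+dox than in each other library, the one gene of the 10 to be so. A gene was called where its log2 fold change was past 1 in size and a bound on it under counting error was past 0.5. CXCL5 had 136 reads in gRNA2+dox, 32 in gRNA2, 37 in CTL+dox and 51 in CTL, or 6.23, 1.23, 1.64 and 2.50 CPM. Its gRNA2+dox level was the highest and its counting interval, 5.22 to 7.37 CPM, did not overlap those of the other libraries. The log2 fold change over gRNA2 was 2.32 (interval 1.78 to 2.95), and the level was 3.75-fold that of CTL+dox (2.62 to 5.61) and 2.48-fold that of CTL (1.79 to 3.51). Intervals of fold changes are 95% intervals by the exact Clopper-Pearson method, and those of levels in CPM are exact 95% Poisson intervals. Those of the differences between doxycycline ratios were computed otherwise, and all cover counting error only. Among the 15204 genes, the bound placed CXCL5 at rank 2 in the comparison with gRNA2, 15 in that with CTL+dox and 45 in that with CTL. The reference libraries also differed among themselves, and CXCL5 in gRNA2 was at 0.50-fold its level in CTL (0.31 to 0.78) without doxycycline in either. That difference had a bound of -0.27 and was not called. CXCL5 overlaps the uncharacterised gene LOC124900715 in the RefSeq annotation, which is not among the counted symbols. The stranded count columns held 256 reads on CXCL5 in all, as did the unstranded column used here.

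CXCL1, CXCL2 and CXCL3 encode the growth-regulated chemokines alpha, beta and gamma, close copies of one another. CXCL2 had 177 reads in gRNA2+dox, 127 in gRNA2, 74 in CTL+dox and 92 in CTL, or 8.10, 4.88, 3.29 and 4.51 CPM. The gRNA2+dox library was the highest, and its interval of 6.95 to 9.39 CPM lay above those of the others. CXCL2 was called higher against CTL+dox, with a log2 fold change of 1.30 (interval 0.90 to 1.71). The log2 fold changes against gRNA2, 0.73 (0.40 to 1.07), and against CTL, 0.84 (0.48 to 1.23), excluded 0 by counting error and fell short of the call.

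CXCL3 had 284 reads in gRNA2+dox, 235 in gRNA2, 200 in CTL+dox and 213 in CTL, or 13.0, 9.02, 8.88 and 10.4 CPM. Its gRNA2+dox level was again the highest, but its interval, from 11.5 CPM, overlapped that of CTL, which reached 11.9 CPM. Its log2 fold change came to 0.53 over gRNA2, 0.55 over CTL+dox and 0.32 over CTL, and none was called. CXCL1, the most abundant of these 3 genes, had 646 reads in gRNA2+dox, 799 in gRNA2, 529 in CTL+dox and 540 in CTL, or 29.6, 30.7, 23.5 and 26.4 CPM. It was highest in gRNA2, and the intervals of the gRNA2 and gRNA2+dox levels overlapped. The log2 fold change of CXCL1 in gRNA2+dox was -0.05 (-0.20 to 0.10) over gRNA2, 0.33 (0.16 to 0.50) over CTL+dox and 0.16 (-0.01 to 0.33) over CTL.

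The unequal change of CXCL1 and CXCL2 can be read within each library, without scaling between libraries. CXCL2 made up 14.6% of the reads of CXCL1 and CXCL2 in CTL (exact binomial interval 11.9% to 17.6%), 12.3% in CTL+dox (9.76% to 15.2%), 13.7% in gRNA2 (11.6% to 16.1%) and 21.5% in gRNA2+dox (18.7% to 24.5%). The share in gRNA2+dox lay above the intervals of all the others. CXCL3 made up 28.3%, 27.4%, 22.7% and 30.5% of the reads of CXCL1 and CXCL3 in CTL, CTL+dox, gRNA2 and gRNA2+dox, and there the interval of gRNA2+dox overlapped those of CTL and CTL+dox. The canonical transcripts of CXCL1 and CXCL2 were 88.7% identical over 1113 aligned columns, with a longest shared run of 77 bases, and CXCL2 and CXCL3 shared a run of 97 bases. Reads that fit both copies equally are not counted, so these 3 levels are uncertain, and how many such reads were set aside was not tested.

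CXCL6, which encodes granulocyte chemotactic protein 2 and whose promoter resembles that of CXCL5, was near the limit of detection. It had 12 reads in gRNA2+dox, 15 in gRNA2, 9 in CTL+dox and 8 in CTL. No library stood apart, and the log2 fold change against gRNA2 was -0.07 (-1.29 to 1.13), so a difference was not detectable at this depth. The canonical transcripts of CXCL5 and CXCL6 were 79.8% identical over 1394 aligned columns.

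CXCL8, the most abundant of the 10 genes, had 14515 reads in gRNA2+dox, 13590 in gRNA2, 15515 in CTL+dox and 11372 in CTL, or 665, 522, 689 and 557 CPM. Both libraries with doxycycline were higher than both without, and CTL+dox was the highest. The log2 fold change of gRNA2+dox was 0.35 (0.32 to 0.38) over gRNA2, -0.05 (-0.08 to -0.02) over CTL+dox and 0.26 (0.22 to 0.29) over CTL. With doxycycline in the control line it was 0.31 (0.27 to 0.34). None of these was called. Within the gRNA2+dox library, CXCL5 made up 0.928% of the reads of this pair of genes (0.779% to 1.10%). The share was 0.235% in gRNA2 (0.161% to 0.331%), 0.238% in CTL+dox (0.168% to 0.328%) and 0.446% in CTL (0.333% to 0.587%), so gRNA2+dox stood above all the others.

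CXCL16 encodes a transmembrane chemokine that is shed by the proteases ADAM10 and ADAM17 and binds CXCR6, and it lies apart from the cluster, at chr17:4733533-4739928 of GRCh38. It had 1639 reads in gRNA2+dox, 1870 in gRNA2, 1320 in CTL+dox and 1179 in CTL, or 75.0, 71.8, 58.6 and 57.7 CPM. Both libraries of the guide line were higher than both of the control line, with or without doxycycline. The log2 fold change of gRNA2+dox was 0.06 (-0.03 to 0.16) over gRNA2, 0.36 (0.25 to 0.46) over CTL+dox and 0.38 (0.27 to 0.49) over CTL, and that of gRNA2 against CTL was 0.31 (0.21 to 0.42). The gene overlaps MED11 and ZMYND15 in the RefSeq annotation. The stranded count columns held 6054 reads on CXCL16 in all, against 6008 in the unstranded column. ADAM10 had 2349 to 3031 reads and ADAM17 1792 to 2230 reads in the libraries, and neither was called.

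IL1B encodes interleukin 1 beta, which is made as a precursor and needs cleavage, usually by caspase-1, to become active. It lies at chr2:112829751-112836779, near IL1A at chr2:112773925-112784493. It had 8672 reads in gRNA2+dox, 8362 in gRNA2, 7436 in CTL+dox and 5891 in CTL, or 397, 321, 330 and 288 CPM. The gRNA2+dox library was the highest, and its interval of 389 to 406 CPM did not overlap any other. Its log2 fold change came to 0.31 (0.26 to 0.35) over gRNA2, 0.27 (0.22 to 0.31) over CTL+dox and 0.46 (0.41 to 0.51) over CTL, all short of the call.

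IL1A encodes interleukin 1 alpha, whose precursor is already active. It had 1491 reads in gRNA2+dox, 1735 in gRNA2, 1829 in CTL+dox and 1475 in CTL, or 68.3, 66.6, 81.2 and 72.2 CPM. CTL+dox was the highest, and the intervals of the other 3 libraries overlapped one another. The log2 fold change of gRNA2+dox was 0.04 (-0.07 to 0.14) over gRNA2, -0.25 (-0.35 to -0.15) over CTL+dox and -0.08 (-0.19 to 0.02) over CTL. IL1B made up 85.3% of the reads of both interleukins in gRNA2+dox (84.6% to 86.0%), 82.8% in gRNA2, 80.3% in CTL+dox and 80.0% in CTL. This share differed between the control and guide lines without doxycycline as well, their intervals being 79.0% to 80.9% and 82.1% to 83.5%.

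IL6 encodes interleukin 6, which signals through IL6R and IL6ST to STAT3, and lies at chr7:22727200-22731998. It had only 8 reads in gRNA2+dox, 11 in gRNA2, 15 in CTL+dox and 9 in CTL. The libraries were not separated, with a log2 fold change of -0.19 (-1.72 to 1.24) between gRNA2+dox and gRNA2. The stranded count columns held 59 reads on IL6 in all, against 43 in the unstranded column used here. In the RefSeq annotation IL6 overlaps the antisense gene IL6-AS1, and the part of that overlap in the gap was not tested.

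Of the 10 genes, 1 was called higher against gRNA2 (CXCL5) where 0.257% of all genes tested were, 2 against CTL+dox (CXCL2 and CXCL5) where 0.454% were, and 1 against CTL (CXCL5) where 0.408% were. None was called lower in these comparisons, in which 0.270%, 0.980% and 0.796% of all genes were. The 3 comparisons share the gRNA2+dox library. CXCL5 was 1 of 24 genes, or 0.158%, that were called higher against all 3. The median log2 fold change of the 10 genes was 0.19 over gRNA2, 0.34 over CTL+dox and 0.35 over CTL, beside -0.02, 0.00 and 0.01 over all genes. Between CTL+dox and CTL none of the 10 was called, where 0.0592% of all genes were called higher and 0.112% lower, and their median was 0.02. Between gRNA2 and CTL none was called, where 0.112% were called higher and 0.362% lower, and their median was 0.03.

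**Figure D1:**
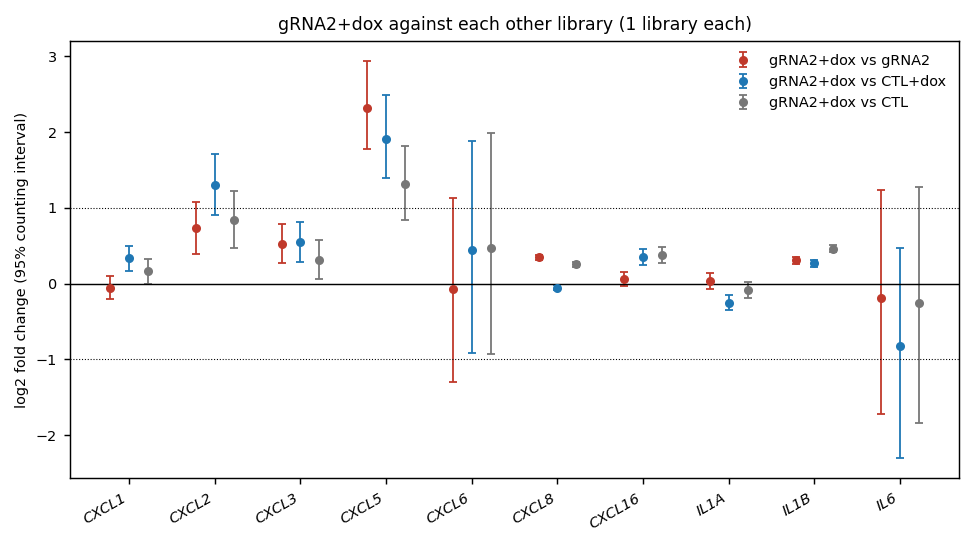
Log2 fold change of gRNA2+dox against gRNA2, CTL+dox and CTL for each gene (vertical axis), with exact 95% counting intervals and dotted lines at 1 and -1. CXCL5 stood at 2.32, 1.91 and 1.31, CXCL2 passed 1 against CTL+dox, and the wide intervals of CXCL6 and IL6 come from their few reads.

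The order of the libraries, without any threshold, differed between the genes. The gRNA2+dox library was the highest of the 4 in 5 of the 10 genes (CXCL2, CXCL3, CXCL5, CXCL16 and IL1B), as it was in 23.8% of all genes tested. Both libraries of the guide line were above both of the control line in 4 of the 10 (CXCL1, CXCL2, CXCL6 and CXCL16), against 24.8% of all genes. In 3 of the 10 (CXCL2, CXCL3 and CXCL5) the level was lower with doxycycline in the control line and higher with it in the guide line, against 18.7% of all genes. These 3 chemokines are consecutive genes of the cluster, transcribed from the reverse strand.

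Doxycycline was given to both lines, so its log2 ratio in the guide line was set against that in the control line. The control line was not a reference with unchanged TCOF1, which stood at 33.47 CPM in CTL+dox and 49.90 CPM in CTL. For CXCL5 the ratio was 2.32 in the guide line and -0.60 in the control line, a difference of 2.92 (2.13 to 3.78, a 95% interval that combines the counting error of all 4 libraries). For CXCL2 it was 0.73 and -0.45, a difference of 1.18 (0.64 to 1.74). For CXCL3 it was 0.53 and -0.23, a difference of 0.76 (0.39 to 1.13). In the control line the intervals of all 3 reached or crossed 0, and the larger part of each difference came from the guide line. For CXCL5, the gRNA2 library that serves as the reference there was the lowest of the 4, at 0.50-fold the level in CTL (0.31 to 0.78). IL1B differed by 0.11 (0.05 to 0.18), from 0.31 in the guide line and 0.19 in the control line. For CXCL8 the ratios were 0.35 and 0.31, which differed by 0.04 (-0.01 to 0.09). The intervals of CXCL1, CXCL6, CXCL16, IL1A and IL6 also spanned 0. The difference was above 0 in 7 of the 10 genes, compared with 45.9% of all genes tested.

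The receptors of these chemokines had few reads. CXCR1 had 108 reads in gRNA2+dox, 125 in gRNA2, 143 in CTL+dox and 115 in CTL, while CXCR2, the main receptor of CXCL1, CXCL2, CXCL3 and CXCL5, had 1 to 4 reads and CXCR6 had 4 to 10. Of the 8 genes listed as chemokine receptors and CXCL16 proteases, 5 were tested and none was called.

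Receptors and antagonists of interleukin 1 were detected in every library. IL1RN, the receptor antagonist, had 14879 reads in gRNA2+dox, 18054 in gRNA2, 14799 in CTL+dox and 12638 in CTL, with a log2 fold change of -0.02 (-0.06 to 0.01) between gRNA2+dox and gRNA2. The receptor IL1R1 had 554 to 712 reads, its partner IL1RAP 849 to 1134 and the decoy receptor IL1R2 1073 to 1486. Of 16 tested genes of the interleukin 1 family and its receptors, none was called in any comparison. Among 20 tested genes of interleukin 1 processing and signalling, AIM2, a cytosolic DNA sensor that activates caspase-1, was the one called. It had 34 reads in gRNA2+dox, 9 in gRNA2, 2 in CTL+dox and 7 in CTL, and was called higher in gRNA2+dox against all 3, with a log2 fold change of 2.10 (1.08 to 3.42) against gRNA2. AIM2 reached the minimum of 10 reads in gRNA2+dox alone, so it was tested because it is high there.

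For interleukin 6, the receptor IL6R had 1240 to 1518 reads and the signal-transducing subunit IL6ST 2671 to 3596, while the ligand had at most 15. The list of the interleukin 6 family, its receptors and their signalling had 13 tested genes. None was called, including SOCS3, the feedback inhibitor of this pathway. SOCS3 had 3179 reads in gRNA2+dox, 2425 in gRNA2, 1871 in CTL+dox and 1488 in CTL. Its log2 fold change was 0.64 (0.57 to 0.72) against gRNA2, 0.81 (0.73 to 0.89) against CTL+dox and 0.998 (0.91 to 1.09) against CTL.

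None of 19 tested NF-kappa-B subunits and feedback genes was called, where at most 0.454% of all genes were called higher and 0.980% lower. Their median log2 fold change was -0.05 over gRNA2, 0.22 over CTL+dox and 0.06 over CTL. In these comparisons 7, 17 and 12 of the 19 lay above 0, beside 45.8%, 50.2% and 51.6% of all genes. Between CTL+dox and CTL 2 of the 19 lay above 0, beside 52.3% of all genes, and their median was -0.15. Chemokines that draw lymphocytes and monocytes gave other values. Of 8 tested, 6 were called higher against gRNA2 (CXCL9, CXCL10, CXCL11, CCL2, CCL7 and CCL8), and 5 against CTL+dox and against CTL, CCL8 being the one short of the call. CXCL10, which acts on the receptor CXCR3, had 206 reads in gRNA2+dox, 27 in gRNA2, 45 in CTL+dox and 24 in CTL, a log2 fold change of 3.16 (2.60 to 3.82) against gRNA2. CCL2, the monocyte chemoattractant, had 195, 85, 76 and 66 reads in the same order, a log2 fold change of 1.45 (1.08 to 1.84). CCL7 and CCL8 rest on at most 13 reads in any library and reached the minimum of 10 reads in gRNA2+dox alone, so they were tested because they are high there. That list was written with these results known, so its count is a description. Of 4 tested other CXC chemokines none was called, and of 14 tested neutrophil growth factors and other inflammatory genes CCL2 was the one called.

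Among the 5 genes whose levels over the 4 libraries lay nearest the mean profile of the 7 members with at least 50 reads in every library (all but CXCL5, CXCL6 and IL6) were MX1, IFIH1, KIF3A and LONP2. Likeness was the Euclidean distance of centred log2 CPM over 4 libraries, between 0.0378 for MX1 and 0.0494 for LONP2, among 9056 genes with at least 200 reads in every library. MX1 and IFIH1 are interferon-induced antiviral genes, and MX1 had 1908 reads in gRNA2+dox, 1852 in gRNA2, 1512 in CTL+dox and 1441 in CTL.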

How the data were processed

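Total RNA of MDA-MB-468 mammospheres was sequenced in 4 conditions with 1 library each. The authors trimmed adaptors with fastp and aligned the reads with STAR, and the submitters' processing notes give hg38 as the build. The annotation and the tool versions are not given in the sources used here. The authors deposited, for each library, raw read counts per gene symbol, without normalization, in 1 unstranded and 2 stranded columns. The unstranded column was used, and the leading lines that name no gene (19.0% to 20.3% of the reads) were left out. STAR counts reads that map to 1 place, so near-identical genes lose reads.

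Library sizes were scaled by TMM with edgeR 4.0.16 in R 4.3.3. A prior count of 0.5 was added for log2 fold changes, and 15204 of 26475 genes, those reaching 10 counts in any library, were tested. The bound was the 1% or 99% quantile of the log2 ratio under Poisson counting error, whichever was nearer 0, calculated in Python 3.11.15 (scipy 1.17.1, numpy 2.4.6) because GFOLD was not run. The scripts were tested on simulated data. With 1 library per condition no test across replicates was possible and no p-value is given. Intervals of fold changes and of shares are exact 95% Clopper-Pearson intervals, and those of levels are exact 95% Poisson intervals. The interval of the difference between the doxycycline ratios combined the posteriors of the 4 counts numerically, in place of the drawn values first planned. Lengths for RPKM come from canonical transcripts of GENCODE 44 lifted to GRCh37, matched by symbol for 90.8% of the genes tested. Positions and promoters come from RefSeq on GRCh38.p14, and transcripts were compared with Biopython 1.88.

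The members and gene lists were chosen with earlier results of these data known. All members were named, with receptors and antagonists of the members, list genes called in a comparison of gRNA2+dox (at most 6 per list) and genes among the 5 nearest in profile. Some items that this rule or the marker lists would name are not reported here. PPBP and the genes of the closing section were chosen after their values were seen. The alternatives tried were total counts, size factors of DESeq2 1.42.0, no filter, at least 50 counts, thinning to the smallest library, a prior count of 5, a 5% quantile, the log2 fold change alone and an added coefficient of variation of 0.1.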

Additional observations from a re-analysis of the deposited data

Results flagged for a closer look

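The doxycycline log2 ratio had opposite signs in the guide line and the control line for 5 of the 10 genes, as it had for 43.9% of all genes tested. The difference, guide line minus control line, was 2.92 for CXCL5, 1.18 for CXCL2 and 0.76 for CXCL3, each with a counting interval above 0. It was -0.092 for CXCL6 and -0.77 for IL6, with intervals that spanned 0 and at most 15 reads in any library. The signs of CXCL6 were no longer opposite under total counts or thinning, and under thinning its difference was 0.039. With 1 library per condition these differences were not tested against the spread between cultures.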

How the results depend on the processing

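No paired analysis was possible because the conditions have no replicate libraries, which also leaves none to leave out. The calls of CXCL5 against all 3 libraries and of CXCL2 against CTL+dox were kept under every alternative run, and no other member was called under any, except that CXCL5 passed as lower in gRNA2 than in CTL by the log2 fold change alone (1 gene). CXCL6 and IL6 were not tested at a minimum of 50 counts. The counts over all genes moved most. At a minimum of 50 counts, 21 genes were called higher and 17 lower against gRNA2, 42 and 97 against CTL+dox, 77 lower against CTL, 1 and 4 between CTL+dox and CTL, and 5 and 31 between gRNA2 and CTL. With a 5% quantile these were 82 and 112, 130 and 246, 104 and 212, 46 and 74, and 58 and 119 in the same order of comparisons. By the log2 fold change alone they were 218 and 308, 301 and 481, 270 and 453, 219 and 261, and 215 and 319. With an added coefficient of variation of 0.1, 11 genes were lower in CTL+dox than in CTL. With the main settings they were 39 and 41, 69 and 149, 62 and 121, 9 and 17, and 17 and 55. Under total counts the log2 fold change against CTL was 0.20 for CXCL8 and 0.41 for IL1B, and that of gRNA2 against CTL was -0.14 for CXCL8. Total counts turned the sign of CXCL6 and CXCL16 between CTL+dox and CTL, and thinning that of CXCL6 in the same comparison and of IL6 between gRNA2 and CTL, none of them called. No scaling moved the median of all genes by more than 0.054. Depth limits CXCL6 and IL6, with at most 15 reads in a library.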

Other observations

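PPBP, the platelet basic protein precursor also known as CXCL7, lies between PF4 and CXCL5 in the chromosome 4 cluster and was, with CXCL8, the chemokine of that cluster with the highest level per length. It had 10251 reads in gRNA2+dox, 9688 in gRNA2, 18325 in CTL+dox and 12203 in CTL, or 359, 285, 622 and 457 RPKM, beside 405, 318, 419 and 339 RPKM for CXCL8. Both libraries of the guide line were below both of the control line, while CXCL5, the next gene, was highest in gRNA2+dox. For PPBP in gRNA2+dox the log2 fold change came to 0.34 (0.30 to 0.38) over gRNA2, -0.79 (-0.83 to -0.76) over CTL+dox and -0.35 (-0.39 to -0.31) over CTL, and none was called. PF4, the neighbour of PPBP, had 32, 24, 18 and 16 reads in CTL, CTL+dox, gRNA2 and gRNA2+dox.

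S100A8, a subunit of calprotectin that is abundant in neutrophils and also made by stressed epithelia, had 14210 reads in gRNA2+dox, 11138 in gRNA2, 16731 in CTL+dox and 9703 in CTL. Like CXCL8, it was higher with doxycycline in both lines, with a log2 ratio of 0.64 (0.61 to 0.68) in the control line and 0.61 (0.57 to 0.64) in the guide line. IL18, a member of the interleukin 1 family, was lowest in gRNA2+dox, with 1675 reads in gRNA2+dox, 3103 in gRNA2, 2256 in CTL+dox and 2095 in CTL and a log2 fold change of -0.64 (-0.72 to -0.55) against gRNA2 that was not called. These genes were picked after their values were seen.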
